A study of Mus musculus with 9 samples.

Results

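The genes of the mouse Fc gamma receptors, Fcgr1, Fcgr2b, Fcgr3 and Fcgr4, and Fcer1g, the gene of the gamma chain that most of them signal through, were read in BaF3 cells transformed by 3 different fusion kinases. They were chosen by name: a probe set counted where the platform annotation gave a member's symbol alone, and where a gene had several, that of the highest 9-array mean would stand for it. All 5 genes were measured, each by 1 probe set, among 19938 genes with a symbol of their own. BaF3 is a mouse blood cell line that depends on interleukin-3. Its cells had been infected with a retrovirus that carried FGFR1OP-RET, BCR-RET or BCR-ABL and sorted, by EGFP fluorescence per the series' design text, and total RNA was hybridised to Affymetrix MouseGene 1.0 ST arrays. Each fusion had 3 arrays, 9 in all. All 3 groups carry a fusion kinase, and cells without a fusion were not analysed here, so each difference is between fusions. Nothing in the labels says that the 3 arrays of a fusion are separate infections or cultures, so the p-values rest on a spread that may be technical only.

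Fc gamma receptors bind the constant part of immunoglobulin G and let blood cells respond to antibody-coated targets. Fcgr1 (high affinity), Fcgr3 and Fcgr4 are activating receptors: they need the gamma chain encoded by Fcer1g, whose ITAM motif is phosphorylated by Src family kinases and then binds the kinase Syk. Fcgr2b is the inhibitory receptor, which carries its own ITIM motif and recruits the phosphatase SHIP, encoded by Inpp5d. Myeloid cells make activating and inhibitory receptors together, whereas B cells make Fcgr2b as their main Fc gamma receptor. In the mouse gene table used for names, Fcgr2b, Fcgr4 and Fcgr3 follow each other on chromosome 1, Fcer1g lies elsewhere on chromosome 1 and Fcgr1 on chromosome 3.

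The promoters of the 4 receptor genes are shown because 3 of them are neighbours and were read side by side below. Each is the 250 bases before the gene's start in RefSeq on build GRCm38.p6, printed 5′ to 3′ on the gene's strand, at chr3:96293970-96294219 (minus strand) for Fcgr1, chr1:170976072-170976321 (minus) for Fcgr2b, chr1:171059404-171059653 (minus; the first of 2 listed starts) for Fcgr3 and chr1:171018676-171018925 (plus) for Fcgr4. Capitals mark matches on either strand to GAGGAA (a box bound by the myeloid factor PU.1, read as TTCCTC on the other strand), TTCNNNGAA (the STAT site known as GAS) or GAAANNGAA (a core of interferon response elements), and no matches overlapped.
Fcgr1: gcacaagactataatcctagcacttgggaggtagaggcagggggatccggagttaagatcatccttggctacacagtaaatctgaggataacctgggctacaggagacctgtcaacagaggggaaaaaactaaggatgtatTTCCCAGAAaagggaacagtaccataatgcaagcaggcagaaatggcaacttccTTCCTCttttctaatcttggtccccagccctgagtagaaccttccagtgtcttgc
Fcgr2b: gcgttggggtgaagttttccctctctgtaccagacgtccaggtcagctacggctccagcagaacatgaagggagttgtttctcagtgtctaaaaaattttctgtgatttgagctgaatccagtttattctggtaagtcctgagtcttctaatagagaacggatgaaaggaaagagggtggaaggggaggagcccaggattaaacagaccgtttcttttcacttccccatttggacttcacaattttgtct
Fcgr3: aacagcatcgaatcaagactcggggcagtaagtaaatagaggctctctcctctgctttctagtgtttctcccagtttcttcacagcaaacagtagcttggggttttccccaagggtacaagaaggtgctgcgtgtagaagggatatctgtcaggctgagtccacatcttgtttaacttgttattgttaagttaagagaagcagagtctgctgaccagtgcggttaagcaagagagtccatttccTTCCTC
Fcgr4: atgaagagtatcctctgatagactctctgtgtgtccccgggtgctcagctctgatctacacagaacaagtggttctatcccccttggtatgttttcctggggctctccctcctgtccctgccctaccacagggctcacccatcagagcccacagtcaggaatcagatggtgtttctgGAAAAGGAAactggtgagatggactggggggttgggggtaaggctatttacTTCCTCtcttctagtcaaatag
The box GAGGAA was found in Fcgr1, Fcgr3 and Fcgr4, 3 of the 5 genes, and in 23.1% of 27025 promoters of this length. The STAT letters stood in Fcgr1 and the interferon letters in Fcgr4, each also in 7.2% of promoters. None of the 3 motifs was found in these 250 bases of Fcgr2b or Fcer1g. A match describes letters and does not show that a factor binds there.

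The values are log2 expression values made by the authors with RMA, which sets the arrays to like distributions. They ran from 2.66 to 14.92, the array medians lay between 8.01 and 8.04, and arrays correlated over all probe sets with r of 0.993 to 0.996 within groups and 0.990 to 0.996 between groups. For 872 genes the 3 arrays of a group held exactly the same value, for reasons that were not tested. Each member had 9 distinct values. Differences were tested with limma over all 19938 genes, and a gene passed where its p, adjusted by the Benjamini-Hochberg method, was under 0.05. Below, ± stands for the SD of 3 arrays and SE for the standard error that limma gives a log2 difference, and each adjusted p comes from that fit. Probe sets bind with different strength, so a level is compared between arrays for a gene. A percentile among genes is only a rough guide to level. All 7 genes that mark blood cells, among them Ptprc and the interleukin-3 receptor genes Il3ra and Csf2rb, had 9-array means above the median gene. Of 9 B lymphoid markers 1, the B cell receptor chain gene Cd79b, lay above the median gene, at percentile 68.6, and its partner chain gene Cd79a stood at percentile 10.9 and Pax5 at 37.2.

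Cells with FGFR1OP-RET had higher values of Fcgr2b, Fcgr3, Fcgr4 and Fcgr1 than cells with BCR-ABL, with no overlap between the arrays, and 2 of these differences passed. Fcgr2b, the inhibitory receptor, rose 2.31-fold and Fcgr1, the high-affinity receptor, rose 1.48-fold. The values of Fcgr3 and Fcgr4 were 1.96-fold and 1.38-fold those of BCR-ABL cells without passing the test. Fcer1g had a mean 0.15 lower on the log2 scale, which did not pass. In BCR-RET cells Fcgr2b, Fcgr3, Fcgr4 and Fcer1g lay within 0.08 of their BCR-ABL means (log2), and Fcgr1 was 0.39 higher without passing.

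**Figure D1:**
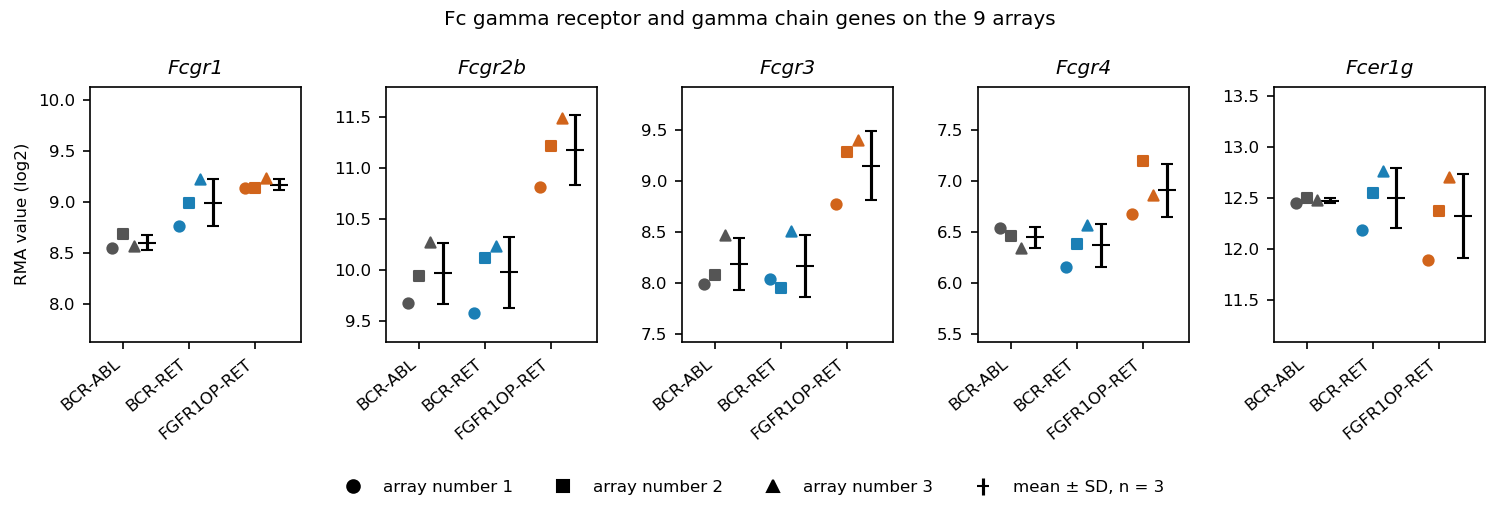
RMA values (log2, vertical axes, each spanning the same width) of the 5 genes on each array, by fusion (horizontal axes). Symbols give the array number and crosses the mean ± SD of 3 arrays. The FGFR1OP-RET arrays of Fcgr2b, from 10.81 to 11.49, lie above all arrays of the other fusions, and those of Fcer1g, from 11.89 to 12.71, overlap those of both other fusions.

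Fcgr2b (probe set 10360028) was the member with the widest spread over the 9 arrays. It read 9.68, 9.94 and 10.27 on the BCR-ABL arrays numbered 1, 2 and 3, and 9.58, 10.11 and 10.23 on the BCR-RET arrays. On the FGFR1OP-RET arrays it read 10.81, 11.21 and 11.49. All 3 FGFR1OP-RET arrays were above the 6 others, with the nearest of these 0.54 lower, and the BCR-ABL and BCR-RET arrays were interleaved. The means were 9.96 ± 0.30 in BCR-ABL, 9.97 ± 0.35 in BCR-RET and 11.17 ± 0.34 in FGFR1OP-RET cells.

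Against BCR-ABL, Fcgr2b rose in FGFR1OP-RET cells by 1.21 (SE 0.22, 95% interval 0.72 to 1.70, adjusted p = 0.0366). BCR-RET cells were 2.29-fold lower than FGFR1OP-RET cells (log2 difference -1.196, interval -1.69 to -0.70, adjusted p = 0.0374). Between BCR-RET and BCR-ABL the difference was 0.01, with an interval of -0.48 to 0.50 that leaves room for a change of up to 1.42-fold (adjusted p = 0.988).

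Fcgr3 (probe set 10360040), a low-affinity activating receptor, also had its highest values in FGFR1OP-RET cells. It read 7.99, 8.08 and 8.47 in BCR-ABL cells, 8.03, 7.94 and 8.51 in BCR-RET cells and 8.77, 9.28 and 9.40 in FGFR1OP-RET cells. The lowest FGFR1OP-RET array was 0.26 above the highest of the other 6. The means were 8.18 ± 0.25, 8.16 ± 0.30 and 9.15 ± 0.34, in that order.

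Fcgr3 was 0.99 lower in BCR-RET than in FGFR1OP-RET cells, or 1.98-fold (difference -0.99, SE 0.20, adjusted p = 0.0499), just inside the threshold. FGFR1OP-RET exceeded BCR-ABL by a like amount, 0.97 (interval 0.52 to 1.41), which fell just outside it (adjusted p = 0.0637). BCR-RET and BCR-ABL differed by -0.02 (interval -0.46 to 0.43, adjusted p = 0.980). Fcgr2b and Fcgr3 share closely related extracellular parts, and whether their probe sets also bind each other's transcripts was not tested. Over the 9 arrays their values correlated with r = 0.960, a description over arrays that share groups.

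Fcgr4 (probe set 10351509), an activating receptor for some immunoglobulin G subclasses, lies between Fcgr2b and Fcgr3. Its mean over the arrays stood at percentile 17.8 of all genes, so part of its signal may be background, and detection calls were not used here. It read 6.54, 6.47 and 6.34 in BCR-ABL cells, 6.16, 6.38 and 6.57 in BCR-RET cells and 6.68, 7.19 and 6.86 in FGFR1OP-RET cells. The FGFR1OP-RET arrays were again above the other 6, by at least 0.11.

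For Fcgr4 FGFR1OP-RET cells exceeded BCR-ABL cells by 0.47 (interval 0.16 to 0.77, adjusted p = 0.240), and the difference between BCR-RET and FGFR1OP-RET cells was -0.54 (interval -0.85 to -0.24, adjusted p = 0.113). Neither passed. BCR-RET and BCR-ABL differed by -0.08 (interval -0.38 to 0.23, adjusted p = 0.837).

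Fcgr1 (probe set 10500335) had a BCR-RET mean of 8.998, between 8.60 in BCR-ABL and 9.17 in FGFR1OP-RET cells. It read 8.55, 8.69 and 8.58 on the BCR-ABL arrays, 8.77, 8.99 and 9.23 on the BCR-RET arrays and 9.14, 9.14 and 9.24 on the FGFR1OP-RET arrays. Every array of either RET fusion was above every BCR-ABL array, and the ranges of the RET fusions overlapped. The SD was 0.07 in BCR-ABL, 0.23 in BCR-RET and 0.06 in FGFR1OP-RET cells.

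Fcgr1 rose in FGFR1OP-RET against BCR-ABL cells by 0.57 (SE 0.10, interval 0.34 to 0.80, adjusted p = 0.0351). In BCR-RET cells it was 0.39 above BCR-ABL (interval 0.16 to 0.62), which did not pass (adjusted p = 0.187). The RET fusions differed by -0.18 (interval -0.40 to 0.05, adjusted p = 0.460), so a difference between them was not shown, nor that they were alike.

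Fcer1g (probe set 10360070), the gamma chain gene, stood at percentile 97.1 of all genes and read 12.45, 12.50 and 12.48 in BCR-ABL cells. It read 12.19, 12.55 and 12.76 in BCR-RET cells and 11.89, 12.38 and 12.71 in FGFR1OP-RET cells. All 3 groups overlapped, and the SD grew from 0.02 in BCR-ABL to 0.29 in BCR-RET and 0.41 in FGFR1OP-RET cells.

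No difference of Fcer1g passed: 0.03 for BCR-RET against BCR-ABL (interval -0.41 to 0.46, adjusted p = 0.967), -0.15 for FGFR1OP-RET against BCR-ABL (interval -0.59 to 0.28, adjusted p = 0.861) and 0.18 for BCR-RET against FGFR1OP-RET (interval -0.26 to 0.61, adjusted p = 0.712). A rise of the gamma chain beyond 0.28 in FGFR1OP-RET cells lies outside the interval.

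**Figure D2:**
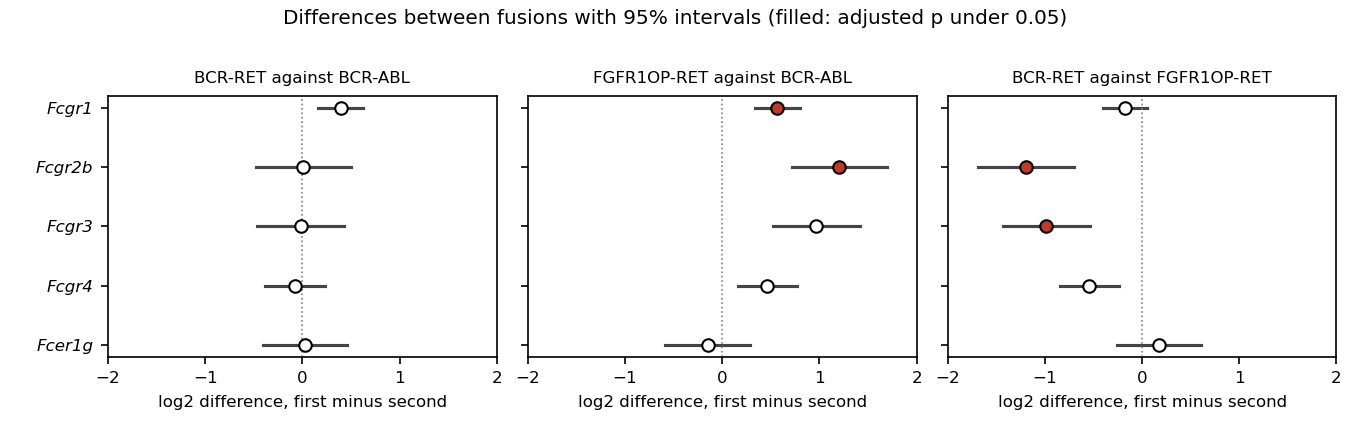
Log2 differences (horizontal axes, first fusion minus second) of the 5 genes in the 3 comparisons, as points with 95% intervals from limma; filled points had an adjusted p under 0.05. Fcgr2b, at 1.21 in FGFR1OP-RET against BCR-ABL and -1.196 in BCR-RET against FGFR1OP-RET, lies farthest from 0, and the intervals of Fcer1g cross 0 in all 3 panels.

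In FGFR1OP-RET against BCR-ABL, 2 of 5 members passed, both higher, where 1.02% of all genes passed and 0.787% were higher. The ranges of the groups did not overlap for 4 of 5 members, against 12.1% of all genes. The members' median difference was 0.57 and that of all genes 0.00. In BCR-RET against FGFR1OP-RET 2 of 5 passed, both lower in BCR-RET (1.33% of all genes passed and 0.853% were lower), 3 of 5 did not overlap (15.3% of all genes), and the median was -0.54 against 0.03. In BCR-RET against BCR-ABL limma called 0 of 5, where 0.587% of all genes passed. At an unadjusted p under 0.05 there was 1 member, Fcgr1. The share of all genes at that unadjusted threshold was not counted, here or for the lists below. There 1 of 5 did not overlap (16.6% of all genes), and the median was 0.01 against 0.03. The members were chosen with earlier results known and the comparisons share arrays, so these counts are a description.

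In the fit without a block the calls lay close to the threshold, and leaving out almost any array ended them, also some arrays outside the comparison. The genes past the threshold fell as well, in FGFR1OP-RET against BCR-ABL from 203 to between 70 and 185. Fcgr1 and Fcgr2b in FGFR1OP-RET against BCR-ABL each lost the call without any 1 of 7 arrays. Fcgr1 reached at most an adjusted p of 0.147, without BCR-ABL replicate 3, and kept its call without BCR-RET replicates 1 and 3. Fcgr2b reached 0.173, without BCR-ABL replicate 2, and kept its call without BCR-RET replicate 1 and FGFR1OP-RET replicate 1. In BCR-RET against FGFR1OP-RET, Fcgr2b passed without BCR-ABL replicate 1 and FGFR1OP-RET replicate 1 and reached 0.129 without FGFR1OP-RET replicate 2. Fcgr3 passed there without FGFR1OP-RET replicate 1 and reached 0.167 without FGFR1OP-RET replicate 2. Without FGFR1OP-RET replicate 1, Fcgr3 also passed against BCR-ABL (adjusted p = 0.0300). Without BCR-RET replicate 1, Fcgr1 passed in BCR-RET against BCR-ABL (difference 0.51, adjusted p = 0.0479). The differences themselves moved less: that of Fcgr2b between FGFR1OP-RET and BCR-ABL lay between 1.05 and 1.39, and that of Fcgr1 between 0.54 and 0.61.

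**Figure D3:**
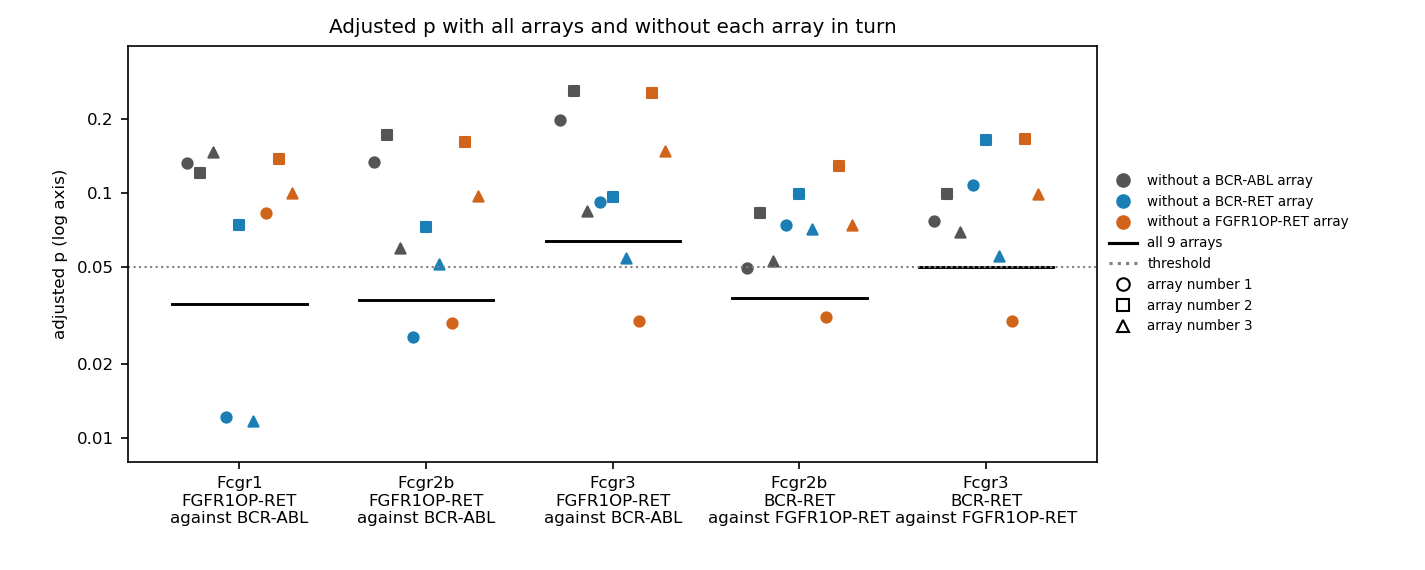
Adjusted p (vertical log axis) of 5 member differences with all 9 arrays (bars) and without each array in turn (symbols, coloured by the fusion of the array left out). The dotted line is the threshold of 0.05, and most symbols lie above it, up to 0.262 for Fcgr3 in FGFR1OP-RET against BCR-ABL.

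Some markers of myeloid cells were also higher in FGFR1OP-RET cells, though not all followed the receptors. Of 12 monocyte and macrophage markers, Cd14, a co-receptor for bacterial lipopolysaccharide, and the perforin-like gene Mpeg1 rose in FGFR1OP-RET against BCR-ABL cells, by 1.06 (adjusted p = 0.0146) and 1.01 (adjusted p = 0.0106), and none fell. The mean log2 level of the list was 8.01 to 8.03 on the BCR-ABL arrays, 8.13 to 8.16 on the BCR-RET arrays and 8.26 to 8.59 on the FGFR1OP-RET arrays. Csf1r, the defining receptor gene of macrophages, stood at percentile 27.7 of all genes and differed by 0.02 (adjusted p = 0.965). Of 10 neutrophil markers Mpo, Mmp8, Prtn3 and S100a9 rose in FGFR1OP-RET against BCR-ABL, by 1.55, 1.33, 1.27 and 0.96, while Camp (-0.02) and Csf3r (0.03) hardly differed. List levels were 9.85 to 10.06 in BCR-ABL, 10.29 to 10.57 in BCR-RET and 10.51 to 10.89 in FGFR1OP-RET cells. The neutrophil median was 0.49 in BCR-RET against BCR-ABL, where limma called 0 of these 10 markers. There Fcgr1, Fcgr2b, Fcgr3, Fcgr4 and Fcer1g differed by 0.39, 0.01, -0.02, -0.08 and 0.03. Of 12 mast cell and basophil markers limma called 0 in each comparison (at an unadjusted p under 0.05, 1 for BCR-RET and 1 for FGFR1OP-RET, each against BCR-ABL, and 2 between the RET fusions, the order used below). The same 0 held for 9 B lymphoid markers (0, 0 and 1) and 9 T and NK markers (3, 0 and 2). In BCR-RET against BCR-ABL, values of same-numbered arrays deviated together, so these arrays can be read as pairs, though no label pairs them. The main fit holds no pairs. A fit of all 9 arrays blocked by that number called 2 neutrophil markers and 1 T and NK marker there, against 0 of each without the block. It called 362 genes in all against 117. Between the RET fusions Cd14 (-1.21), Mpeg1 (-1.16) and Prtn3 (-0.65) were lower in BCR-RET. The part of these markers in the receptor differences was not tested, and in these bulk samples more cells of a type and more RNA per cell cannot be told apart.

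The list of other Fc receptor genes held receptors beyond the Fc gamma family, among them Trim21, a cytosolic receptor for the Fc part of immunoglobulin G. Of 12 measured, limma called 0 in each comparison (1, 2 and 2 at an unadjusted p under 0.05), with medians of 0.07, 0.02 and 0.05, close to the medians of all genes (0.03, 0.00 and 0.03). For 8 of the 12 the mean lay below the 25th percentile of genes. Among these were Fcer1a and Ms4a2, the other chains of the mast cell receptor for immunoglobulin E that holds the gamma chain, at percentiles 4.0 and 3.4. Fcgrt, the neonatal Fc receptor gene, was not analysed here.

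Of 14 genes for ITAM adaptors and receptors or chains that can pair with the gamma chain, 1 passed against BCR-ABL with each RET fusion, Csf2rb, the common beta chain of the receptors for GM-CSF, interleukin-3 and interleukin-5. It rose by 0.72 (SE 0.09, adjusted p = 0.00819) in BCR-RET and by 0.69 (SE 0.09, adjusted p = 0.00649) in FGFR1OP-RET cells. Tyrobp, the adaptor DAP12 that works beside the gamma chain in myeloid cells, had means of 10.22 ± 0.27 in BCR-ABL, 10.59 ± 0.42 in BCR-RET and 10.91 ± 0.38 in FGFR1OP-RET cells, with no difference past the threshold (adjusted p = 0.569, 0.341 and 0.563 in the order above). It was singled out after its values were seen. The list medians were 0.10, 0.10 and 0.00, and limma called 0 genes between the RET fusions (3 at an unadjusted p under 0.05).

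Of 21 kinases, adaptors and effectors downstream of activating receptors, 1 fell in BCR-RET against BCR-ABL, and 2 rose and 1 fell in FGFR1OP-RET against BCR-ABL. Lat2, an adaptor of the LAT family, fell in both, by 0.55 (adjusted p = 0.00752) and by 0.37 (adjusted p = 0.0320). Pik3ap1, the adaptor BCAP that links receptors to PI3 kinase, rose by 0.40 (adjusted p = 0.00784) and Gab2, a docking adaptor, by 0.37 (adjusted p = 0.0163) in FGFR1OP-RET cells. Between the RET fusions 3 were lower and 1 higher in BCR-RET. Syk, the kinase that binds phosphorylated ITAMs, was lower by 0.40 (difference -0.40, SE 0.05, adjusted p = 0.00625), Pik3ap1 by 0.42 (difference -0.42) and the kinase gene Prkcd by 0.35 (difference -0.35), and the adaptor gene Lat was 0.32 higher. The list medians were -0.02, 0.03 and -0.07.

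Of 14 inhibitory signalling partners, limma called 0 in BCR-RET against BCR-ABL (4 at an unadjusted p under 0.05), and Dok2, an adaptor that restrains RAS signalling, fell by 0.50 in FGFR1OP-RET against BCR-ABL (SE 0.05, adjusted p = 0.00314). In BCR-RET against FGFR1OP-RET Dok2 was 0.33 higher, and Dok3 (-0.49), Csk (-0.35), the kinase that switches off Src family kinases, and the ubiquitin ligase gene Cbl (-0.27) were lower. The list medians were -0.11, 0.01 and -0.19. Inpp5d, whose product SHIP is recruited by Fcgr2b, had means of 11.76 ± 0.03 in BCR-ABL, 11.64 ± 0.09 in BCR-RET and 11.79 ± 0.03 in FGFR1OP-RET cells, and no difference passed.

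Interferon gamma raises Fcgr1 in myeloid cells, and 13 genes of that response were read beside it. Cxcl10 (1.16) and Psmb9 (0.38) passed as higher in BCR-RET against BCR-ABL. In FGFR1OP-RET against BCR-ABL, Irgm1 (0.87), Tap1 (0.50) and Psmb9 (0.34) passed as higher, and none passed as lower in either comparison. Ciita (0.007 and -0.001), Cxcl9 (0.04 and 0.04) and Irf8 (0.06 and -0.05) hardly differed, in the same order. These genes were singled out after their values were seen. The list medians were 0.23 and 0.25 against 0.03 and 0.00 for all genes. Between the RET fusions Cxcl10 (0.78) and Socs1 (0.37) were higher and Tap1 (-0.27) was lower in BCR-RET, with a median of 0.01. The list had mean levels of 8.29 to 8.32 on the BCR-ABL arrays, 8.55 to 8.70 on the BCR-RET arrays and 8.51 to 8.63 on the FGFR1OP-RET arrays, and its part in the values of Fcgr1 was not tested.

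**Figure D4:**
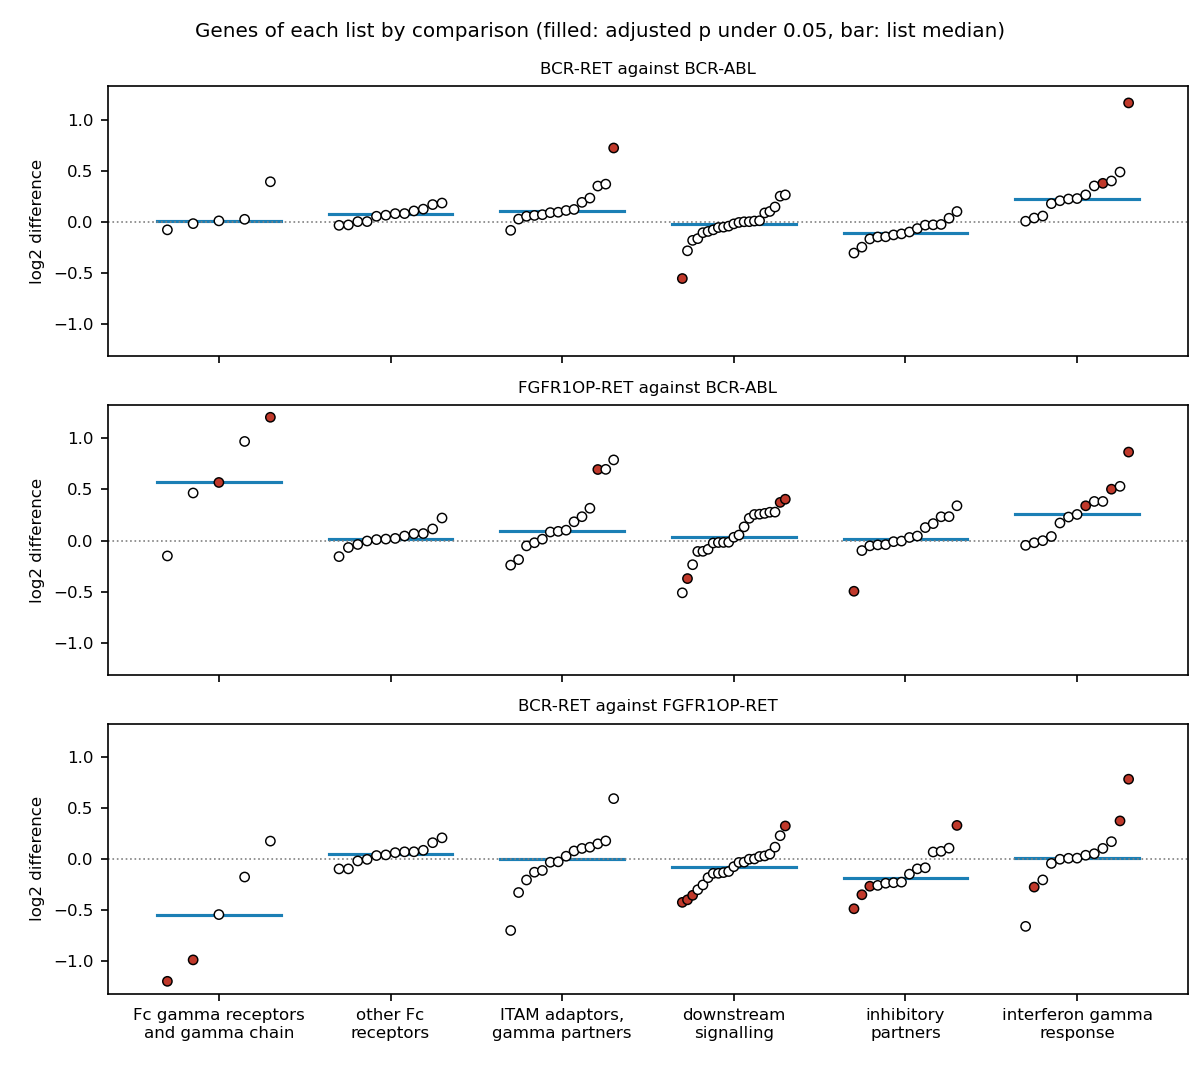
Log2 differences (vertical axes, first fusion minus second) of the 5 members and of the genes of 5 signalling lists, 1 point per gene ordered by value within a list; filled points had an adjusted p under 0.05 and bars are list medians. The members' median is 0.57 in FGFR1OP-RET against BCR-ABL and -0.54 in BCR-RET against FGFR1OP-RET, while the other Fc receptors lie between -0.16 and 0.22 in all panels.

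Like the members' calls, many calls of these lists were lost when an array was left out. Of the named list genes, 2 of 4 calls in BCR-RET against BCR-ABL held without each array in turn (Csf2rb and Cxcl10), 5 of 14 in FGFR1OP-RET against BCR-ABL (Csf2rb, Pik3ap1, Dok2, Tap1 and Prtn3) and 4 of 15 in BCR-RET against FGFR1OP-RET (Syk, Pik3ap1, Cd14 and Mpeg1). The other calls reached highest adjusted p values of 0.0566 to 0.120, 0.0597 to 0.168 and 0.0501 to 0.179, in that order. The counts include Ptprc, a blood cell marker that was lower in BCR-RET than in FGFR1OP-RET cells (difference -0.36, adjusted p = 0.0182).

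The genes most like each member over the 9 arrays were taken among genes whose SD was at least 50% of the member's, leaving out other members, predicted genes and clones. Nearest to Fcgr2b were Atp6v0a1, a subunit of the proton pump of endosomes and lysosomes (r = 0.992), the RNA-binding protein gene Rbm47 (r = 0.987) and the mast cell inhibitory receptor gene Milr1 (r = 0.979). Nearest to Fcgr3 were the chemokine receptor gene Ccr1 (r = 0.974), the myeloid lectin gene Clec5a (r = 0.970) and Atp6v0a1 (r = 0.968). Nearest to Fcgr4 were Lilr4b (r = 0.958) and the inhibitory receptor gene Lilrb4a (r = 0.940), close relatives of each other, and Mcemp1 (r = 0.936). All of these genes had their highest group mean in FGFR1OP-RET cells, as the member did, which choosing them by r made likely in advance. Nearest to Fcgr1 were Rbpms2 (r = 0.938), Ramp1 (r = 0.921) and the interferon-induced gene Epsti1 (r = 0.915), and nearest to Fcer1g were Dhrs7 (r = 0.947), Tmem41a (r = 0.944) and Ppdpf (r = 0.943). These are the highest of many candidates over 9 arrays in 3 groups and are given as a description.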

How the data were processed

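The deposited log2 values are gene-level RMA summaries from Affymetrix Expression Console, per the labels and the submitters' processing notes. No software version, annotation or build is named there. Of 35557 probe sets, 21789 had 1 symbol in the platform annotation, and the probe set with the highest 9-array mean was kept per gene, which left 19938 genes. Symbols were checked through Entrez identifiers against a GRCm38.p6 gene table, which changed 0 symbols. Groups and replicate numbers came from the sample titles. The fit used limma 3.58.1 (lmFit, eBayes) in R 4.3.3 with a mean per group and all 9 arrays sharing 1 spread, at an adjusted p under 0.05. It was tested on simulated data with independent noise on each array, which lack the deviations that same-numbered arrays share. With 3 arrays against 3 an exact two-sided permutation test of a single value cannot go below p = 0.1, and the number of arrays limits the precision.

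The members, the 11 gene lists (121 of 130 genes measured) and the rule for named genes were chosen with earlier results of these data known. The rule names all members, up to 4 called genes per list and comparison, and the 3 genes most like each member. The other 9 list genes were not analysed here. Alternatives were the 2 groups alone, the replicate number as a block, other variance priors, cyclic loess, no dim genes, averaged probe sets, all probe sets and leaving out each array.

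Same-numbered arrays deviated together in BCR-RET and BCR-ABL (r = 0.617, 0.155 and 0.367 for numbers 1, 2 and 3, all over the limit of 0.1). They can thus be read as pairs from the data. The main fit holds no pairs, and the number entered only through the blocked fit. With FGFR1OP-RET, numbers 1 and 3 gave r of 0.382 and 0.400 against BCR-ABL and 0.498 and 0.410 against BCR-RET. Number 2 gave -0.128 against BCR-ABL and -0.152 against BCR-RET, below the limit, so those numbers were not treated as pairs.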

Additional observations from a re-analysis of the deposited data

How the results depend on the processing

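The limits are those of 3 arrays a group: the member calls lie at adjusted p values of 0.0351 to 0.0499, so other settings moved calls while the log2 differences stayed alike. Detection calls and signal over background were not used, and Fcgr4 dropped out when dim genes were left out. The comparisons are named A (BCR-RET against BCR-ABL), B (FGFR1OP-RET against BCR-ABL) and C (BCR-RET against FGFR1OP-RET). Where a cause is not given by the setting's own construction (fewer samples, more features tested), the cause was not tested.

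With all 9 arrays the genes past the threshold numbered 117, 203 and 265 in A, B and C and the members 0, 2 and 2. With the 2 groups compared alone the genes were 56, 94 and 34 and the members 0, 1 and 0. Fcgr2b then did not pass in B (1.21, adjusted p = 0.0826) or C (-1.196, 0.133), nor Fcgr3 in C (-0.99, 0.163). List counts fell to 1 for interferon gamma in A and rose to 1 for neutrophil in A. In B monocyte had 0 and neutrophil 2, and in C downstream signalling, inhibitory partners, interferon gamma, monocyte, neutrophil and blood cell had 0.

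With all 35557 probe sets tested, 73, 121 and 101 passed, which are counts of probe sets and not of genes. No member passed in B (Fcgr1 0.57, adjusted p = 0.105, and Fcgr2b 1.21, 0.113) or C (Fcgr2b -1.196, 0.101, and Fcgr3 -0.99, 0.116). Interferon gamma then had 1 in A, 1 in B and 1 in C. Downstream signalling, monocyte and neutrophil had 1 each in B, and in C downstream signalling had 2 and inhibitory partners, neutrophil and blood cell had 0.

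With the replicate number as a block the genes were 362, 576 and 1135 in A, B and C. Fcgr3 then passed in B (0.97, adjusted p = 0.000809) and Fcgr4 in C (-0.54, 0.0297), Fcgr2b had an adjusted p of 1.83e-05 in B and 2.58e-05 in C, and Fcgr1 in A stayed outside at 0.0512. The block changed no other member call. Arrays of the same number are treated as pairs in A alone; in B and C they share a number. Under the block, neutrophil had 2 and T and NK 1 in A. In B the ITAM and gamma chain partner list had 3, downstream signalling 6, inhibitory partners 2, mast cell 1 and blood cell 2. In C the ITAM list, mast cell, T and NK and blood cell had 2 each and neutrophil 3.

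Robust priors left Fcgr3 outside in C (-0.99, adjusted p = 0.0511; 1 member, and 1 interferon gamma gene), as did averaged probe sets (-0.99, 0.0503; 1 member). An intensity trend gave 2 downstream, 2 inhibitory and 1 interferon gamma genes in C. Cyclic loess gave 1 neutrophil gene in A and 5 downstream, 2 inhibitory and 2 blood cell genes in B. Without dim genes inhibitory partners and blood cell had 2 each in B and blood cell 2 in C. Under these 8 settings no member changed direction.

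Without each array in turn the genes ranged from 28 to 114 in A, 70 to 185 in B and 86 to 194 in C, and the members from 0 to 1, 0 to 2 and 0 to 2. The difference of Fcgr1 ranged from 0.28 to 0.51 in A, 0.54 to 0.61 in B and -0.29 to -0.06 in C. That of Fcgr2b ranged from -0.13 to 0.21, 1.05 to 1.39 and -1.38 to -0.997, that of Fcgr3 from -0.19 to 0.13, 0.84 to 1.16 and -1.18 to -0.86, and that of Fcgr4 from -0.18 to 0.0295, 0.32 to 0.58 and -0.66 to -0.40. That of Fcer1g ranged from -0.11 to 0.18, -0.34 to 0.0667 and -0.0411 to 0.37. The changes of sign were among differences that did not pass. List counts in A, B and C ranged over 1 to 1, 1 to 2 and 0 to 1 for the ITAM list, 0 to 1, 1 to 3 and 2 to 3 for downstream signalling, 0 to 0, 1 to 2 and 0 to 2 for inhibitory partners, and 1 to 3, 1 to 4 and 0 to 2 for interferon gamma. They ranged over 0 to 0, 0 to 3 and 2 to 3 for monocyte, 0 to 1, 1 to 4 and 0 to 1 for neutrophil, 0 to 0, 0 to 0 and 0 to 1 for T and NK, and 1 to 1, 1 to 1 and 0 to 1 for blood cell. They stayed at 0 for other Fc receptors, mast cell and B lymphoid.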

Other observations

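Values within the groups also moved together. The array numbered 1 was the lowest of its group in all 3 groups for Fcgr1, Fcgr2b and Fcer1g, and in 2 of 3 groups for Fcgr3 and Fcgr4. For Fcer1g that array lay below its group mean by deviations of -0.44 to -0.026 on the log2 scale, and for Fcgr2b by -0.40 to -0.29. After the group means were taken off, Fcer1g and Fcgr2b correlated with r = 0.848 over the 9 arrays and Fcer1g and Fcgr3 with r = 0.750, whereas with the group means left in the values were 0.070 and 0.062. These are descriptions over arrays that share groups and numbers, with no test.

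Itgam and Lyz2 are monocyte and macrophage markers whose differences did not pass. Itgam, an integrin gene of myeloid cells, read 8.20 ± 0.05 in BCR-ABL, 8.12 ± 0.07 in BCR-RET and 8.85 ± 0.44 in FGFR1OP-RET cells (adjusted p = 0.872 for BCR-RET and 0.186 for FGFR1OP-RET, each against BCR-ABL, and 0.0955 between the RET fusions, by limma). Lyz2, the lysozyme gene of macrophages and granulocytes, read 10.29 ± 0.18, 11.23 ± 0.36 and 11.31 ± 0.70 (adjusted p = 0.297, 0.250 and 0.932 in the same order). These genes were singled out after their values were seen.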
